A study of Rattus norvegicus with 6 samples.

Results

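Liver RNA was read on 1-colour Agilent arrays, and each array probe carries a mark from the scanner software that says whether its spot was well above background. This report describes the probes whose mark differed completely between the groups. The members were chosen by these marks alone: a probe had to be well above background on all 3 arrays of 1 group and on 0 of the 3 arrays of the other. Of 61572 probes, 115 met this rule. Probes of control spots, 84 probes for external spike-in RNA and the 1 probe of Clca2 were left out beforehand.

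Both groups were male Sprague-Dawley (Crl:CD(SD)) rats, 5 weeks old at purchase and kept on a basal diet. The control animals (corn oil 1 to 3) received the vehicle corn oil, and the treated animals (BBMP 1 to 3) received 2,2-bis(bromomethyl)-1,3-propanediol at 1000 mg/kg/day, a brominated flame retardant known to cause tumours in rodents. The labels give the time as 28 days in the series design and as 9 weeks in the treatment protocol, and no age at sampling is stated. Each group had 3 animals with 1 array each. The 3 corn oil arrays shared 1 slide and 1 scan, and the 3 BBMP arrays shared another. For every value below, the treatment therefore cannot be told apart from the slide or the scan. A lower signal in whole liver can come from fewer cells of a type or from less RNA per cell, and these cannot be told apart either.

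Most RNA in liver comes from hepatocytes, which secrete plasma proteins and handle foreign compounds. Transcripts of nerve, germ line and sensory genes are rare there, and their array spots lie close to the background. A probe that crosses the background limit may do so through a large change or through a very small one, which is why each difference is given here as a lower bound. Signals are given as log2 of the spot's signal relative to the array's 75th percentile, so that 0 is that percentile and a step of 1 is a 2-fold change. The bound sets the mean of the bright group against the mean of the dim group after each dim value below the array's detection floor was raised to that floor. The floor, the lowest signal of any probe well above background, lay at -5.15, -4.89 and -5.40 in corn oil 1 to 3 and at -5.25, -5.23 and -5.37 in BBMP 1 to 3. A fold given below as at least some value holds for this floor and this scaling only, and higher floors gave smaller median bounds. Where no dim value lay below the floor, the bound equals the measured difference. Because the rule used the corn oil against BBMP contrast itself, the members are described without any test.

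Hepatocyte markers were well above background on all 6 arrays for 10 of 10 genes. The scanner marked 36987 (corn oil 2) to 39630 (corn oil 3) probes of an array in this way, or 60.1% to 64.4%. The local background had medians of 37 to 39 intensity units on the corn oil slide and 54 to 56 on the BBMP slide, and its part in the results was not tested.

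The 115 probes fell into 36 seen in corn oil livers only (0.0585% of all probes) and 79 seen in BBMP livers only (0.128%). These shares are the rule's own yield, and nothing is read from them. On either side of the rule, 118 probes were marked in 3 controls and 1 treated animal and 175 in 2 controls and 0 treated animals. In the other direction 312 were marked in 3 treated animals and 1 control, and 257 in 2 treated animals and 0 controls. The larger number on the BBMP side depended on how detection was set. When a single signal limit of -4.89, the highest of the 6 floors, replaced the marks on every array, 70 probes were seen in corn oil livers only and 65 in BBMP livers only, and 19 and 24 of these were members. This limit was chosen after the data were seen. A rule over 5 arrays asks less of a probe and found more. It gave 92, 143 and 48 corn oil probes without corn oil 1, 2 and 3 and 73, 56 and 97 without BBMP 1, 2 and 3. For BBMP probes it gave 149, 104 and 296 without corn oil 1, 2 and 3 and 150, 184 and 160 without BBMP 1, 2 and 3.

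The members were weak signals in both directions. The lower bound ranged from 1.19-fold to 5.64-fold for the corn oil side, with a median of 1.61, and from 1.04-fold to 2.46-fold for the BBMP side, with a median of 1.36. It reached 2-fold for 7 of 36 and 3 of 79 probes. Dim values were raised to the BBMP floors on the corn oil side and to the corn oil floors on the BBMP side. These floors differ, so nothing is read from the larger bounds on the corn oil side. Without corn oil 2, the array with the highest floor, the median bounds were 1.528 for the corn oil side and 1.473 for the BBMP side. Signal in the dim group was not shown to be absent: all 3 dim spots still passed the scanner's weaker mark, positive and significant, for 31 of 36 and 72 of 79 probes. The values of the groups did not overlap for 36 of 36 probes on the corn oil side and for 62 of 79 on the BBMP side. Among all probes, 7.56% had no overlap with BBMP lower and 6.01% had no overlap with BBMP higher, and since the rule used this contrast nothing is read from the comparison. For the other 17 BBMP-side probes the weakest treated value lay at or below the strongest control value. The mark is no single signal limit: the strongest spot without it lay between -5.07 and -4.43, depending on the array. These counts include dim values below the floor, whose size is uncertain. With such values raised to the floor, the groups did not overlap for 36 of 36 and 31 of 79 probes, and a gap of at least 1 on the log2 scale was left for 2 probes (A1bg and A_64_P060879) and 0 probes. Such raised values reached -4.89 (corn oil 2) on the BBMP side but only -5.23 (BBMP 2) on the corn oil side. The counts of the directions are therefore not alike, and without their share over all probes nothing is read from them. Corn oil 2 was the brightest of the 3 control arrays for 26 of the 36 corn oil probes. That array also had the highest floor, -4.89, and the part of the floor in this count was not tested.

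Gene symbols were found for 14 of the 36 corn oil probes (38.9%), which stand for 13 genes, and for 26 of the 79 BBMP probes (32.9%), 1 for each of 26 genes. The share was 44.6% over all probes and 50.6% over probes well above background on all 6 arrays.

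Among the genes seen in corn oil livers only, A1bg had the largest bound. It encodes a plasma glycoprotein of the immunoglobulin superfamily that in rat liver follows the female pattern of growth hormone secretion. Its signal was -3.81, -3.69 and -4.23 in corn oil 1 to 3 and -5.98, -5.74 and -5.79 in BBMP 1 to 3. All treated values were below the floor of their arrays, and the lowest control value lay 1.00 above the highest of those floors. With those floors the signal was at least 2.60-fold lower after BBMP. With the floor at the 5th percentile of detected signals the bound was 1.66-fold. A1bg had no other probe.

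Plppr1, a membrane protein related to lipid phosphatases and best known from growing neurons, was the only gene with 2 member probes, and they are the only probes of it. One gave -4.41, -3.73 and -4.35 in the controls against -5.36, -7.39 and -6.25 after BBMP, at least 2.18-fold lower. The other gave -4.31, -3.61 and -4.65 against -6.88, -7.17 and -6.26, at least 2.13-fold lower. In both probes corn oil 2 was the highest array and the groups were apart, while the treated values below the floor have no order among themselves. Both probes were measured in the same animals, so they are not independent replicates.

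The stretches upstream of A1bg and Plppr1, the named corn oil genes with the largest bounds, are shown because the same 9 letters occur in both. The letters are TTCCAGGAA, a match to TTCNNNGAA, the pattern bound by STAT factors, some of which carry the growth hormone signal to the nucleus. Both strands were searched in windows from 250 bases before to 50 bases after the annotated start, and the 250 bases before it are printed 5′ to 3′ from RefSeq, build GRCr8, with the match in capitals. They lie at chr7:94387497-94387746 on the minus strand and chr5:68232713-68232962 on the plus strand.
A1bg: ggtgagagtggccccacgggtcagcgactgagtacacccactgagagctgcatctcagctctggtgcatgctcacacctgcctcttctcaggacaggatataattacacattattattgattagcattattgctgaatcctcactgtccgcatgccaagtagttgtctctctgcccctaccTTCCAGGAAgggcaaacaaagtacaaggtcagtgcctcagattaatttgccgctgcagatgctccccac
Plppr1: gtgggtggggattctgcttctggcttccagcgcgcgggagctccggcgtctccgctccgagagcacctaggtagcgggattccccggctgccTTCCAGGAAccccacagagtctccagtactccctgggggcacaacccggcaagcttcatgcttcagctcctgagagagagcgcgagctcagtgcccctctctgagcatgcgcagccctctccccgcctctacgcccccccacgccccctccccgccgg
The match starts 69 bases before the start of A1bg and 158 bases before that of Plppr1. The pattern was found in 2 of the 12 promoters held for corn oil genes (16.7%), in 1 of 21 for BBMP genes (4.76%, that of Vom2r60) and in 8.68% of 27457 rat promoters. A match is a description of letters and not evidence that a factor binds there.

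Erc2, a scaffold of the presynaptic active zone, gave -4.06, -4.18 and -5.23 in the controls and -6.38, -7.48 and -5.96 after BBMP, at least 1.74-fold lower. Its remaining probes behaved differently from each other. One read -1.70, -2.19 and -2.21 in the controls and -7.31, -6.72 and -2.95 after BBMP, well above background in all controls and in BBMP 3 alone, so that it missed the rule by 1 array. The last probe read -1.70, -1.71 and -2.05 against -2.38, -1.89 and -2.26 and carried the mark on each of the 6 arrays. The probes of Erc2 therefore disagree on whether its RNA was measurable in BBMP 1 and BBMP 2. Ltb4r2, the low-affinity receptor for leukotriene B4, gave -4.30, -4.62 and -4.67 against -5.87, -7.05 and -5.65, at least 1.69-fold lower, and its other probe was above background on no array.

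Fkbp10 is a prolyl isomerase of the endoplasmic reticulum that helps collagen to fold. Its member probe gave -4.50, -4.34 and -4.37 in the controls and -5.14, -6.41 and -5.26 after BBMP, at least 1.75-fold lower, and its other probe was above background on no array. Of the other 11 genes in a list of collagen-folding enzymes and chaperones, 0 passed limma's adjusted p of 0.05 in either direction. They were higher in 3 cases and lower in 8 (7 were higher without scaling between arrays), with a median log2 difference of -0.11 beside -0.01 over all 28112 features tested, and 0 were under an unadjusted p of 0.05. The summed level of the list, Fkbp10 included, in units of the array's 75th percentile, was 188 to 195 in controls and 182 to 184 after BBMP. Serpinh1, the collagen chaperone, differed by -0.20 ± 0.14 (SE) and the lysyl hydroxylase Plod3 by -0.25 ± 0.15, the lowest of the list. The prolyl hydroxylases and hydroxylase subunits P3h3 (0.15 ± 0.22), P4ha1 (0.10 ± 0.20) and P4hb (0.03 ± 0.10) were the 3 above 0.

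Soat1, which esterifies cholesterol for storage, gave -4.66, -4.11 and -4.14 in the controls and -4.95, -5.01 and -5.08 after BBMP, 1.64-fold lower. All 3 treated values lay above the detection floor of their arrays although the spots were not marked as well above background. No value was raised, so for Soat1 the fold is the measured difference and not a lower bound. Castor2, a paralogue of an arginine sensor of the mTORC1 pathway, gave -4.99, -4.02 and -4.88 against -6.16, -5.54 and -5.92, at least 1.57-fold lower. Another Castor2 probe carried the mark on each of the 6 arrays, at -2.64 ± 0.22 in the controls and -2.95 ± 0.19 after BBMP (SD, n = 3), and the last one on none. Phka1, the regulatory alpha subunit of muscle phosphorylase kinase, which starts glycogen breakdown, gave -4.94, -4.43 and -4.90 against -5.52, -5.22 and -5.72, at least 1.44-fold lower. Slc7a10, a carrier of small neutral amino acids, gave -4.80, -4.44 and -4.91 against -5.25, -5.35 and -5.54, at least 1.48-fold lower. Its other probe was well above background in corn oil 3 alone.

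The remaining named genes of the corn oil side had the following values. Adam4l1, of the ADAM family of membrane metalloproteases, gave -4.78, -4.46 and -4.47 against -5.60, -5.49 and -5.43, at least 1.64-fold lower. Samd5, a protein with a sterile alpha motif, gave -4.59, -4.01 and -4.93 against -5.05, -5.34 and -5.29, at least 1.61-fold lower. The second Samd5 probe was well above background in all controls and in 2 treated livers, and read -4.36 ± 0.14 against -5.15 ± 0.45 (SD, n = 3). The smallest bounds of the corn oil side belonged to Fbxo39, an F-box protein, and Cldn20, a claudin of tight junctions. Fbxo39 gave -4.78, -4.47 and -5.06 against -5.08, -5.30 and -5.20, at least 1.32-fold lower, with corn oil 3 only 0.027 above BBMP 1. Cldn20 gave -5.08, -4.84 and -5.16 against -6.15, -5.31 and -6.49, at least 1.19-fold lower. With the floor at the 1st percentile of detected signals the bound of Cldn20 was 0.987, under 1-fold.

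Unnamed probes held the 2 largest bounds of all 115 members. Probe A_64_P060879 read -3.13, -2.38 and -2.86 in corn oil 1 to 3 and -5.91, -5.86 and -6.03 after BBMP, at least 5.64-fold lower. All treated values were below the floor, and the lowest control value lay 2.10 above the highest floor of the treated arrays. A_64_P015482 read -4.55, -2.09 and -3.88 against -5.89, -6.01 and -6.91, at least 3.43-fold lower. Its control values were spread over more than 2 log2 units, and without corn oil 2 the bound was 2.10-fold. A_44_P528997 read -4.86, -3.33 and -3.58 against -5.22, -5.75 and -5.35, at least 2.55-fold lower. A_44_P606003 read -4.35, -4.06 and -4.15 against -5.34, -5.21 and -5.39, at least 2.14-fold lower. A_44_P166449 read -4.60, -4.31 and -4.50 against -5.33, -7.36 and -7.16, at least 1.76-fold lower. The other 17 unnamed corn oil probes had bounds from 1.35-fold to 1.66-fold.

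Among the genes seen in BBMP livers only, Zfp362, a zinc finger protein, had the largest bound, and 1 animal set it. Its only probe read -5.20, -5.24 and -5.17 in corn oil 1 to 3 and -1.87, -4.68 and -4.77 in BBMP 1 to 3, at least 2.46-fold higher. BBMP 1 stood far above the other treated livers, and without it the bound was 1.27-fold.

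Iqgap3, a scaffold protein of dividing cells, gave -5.41, -4.91 and -5.46 in the controls and -4.83, -4.66 and -3.78 after BBMP, at least 1.65-fold higher. A second Iqgap3 probe carried the mark on each of the 6 arrays and read -0.33 ± 0.19 in controls and -0.18 ± 0.31 after BBMP (SD, n = 3), so that the gene was measured in both groups. The same held for Cblc, a ubiquitin ligase of the Cbl family. Its member probe gave -5.24, -5.67 and -5.48 against -4.52, -4.26 and -4.74, at least 1.55-fold higher, while its second probe read -1.77 ± 0.63 in controls and -1.59 ± 0.19 after BBMP. Gna14, a G protein alpha subunit of the Gq class, gave -4.80, -4.71 and -5.70 against -4.44, -4.27 and -4.65, at least 1.43-fold higher. The means of its second probe, marked on every array, lay in the other order, at -0.81 ± 0.16 in controls and -1.01 ± 0.50 after BBMP. Ecel1, a membrane metallopeptidase of the nervous system, gave -5.78, -4.59 and -5.69 against -4.31, -4.70 and -4.80, at least 1.36-fold higher, with overlapping groups. Its second probe read -2.40 ± 0.10 and -2.53 ± 0.33.

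Vom2r60, a vomeronasal receptor, gave -6.09, -5.48 and -5.49 in the controls against -4.09, -5.01 and -4.65, at least 1.48-fold higher. The olfactory receptor Or5w13 gave -5.50, -5.39 and -6.36 against -4.91, -4.33 and -4.91, at least 1.35-fold higher. Mrgprb13, of the Mas-related receptors of sensory neurons and mast cells, gave -5.54, -4.73 and -5.92 against -4.53, -4.63 and -5.06, at least 1.28-fold higher, with overlapping groups. A second olfactory receptor, Or4c31, named after its values were seen, had a bound of 1.23-fold. Each of these 4 genes had a second probe, and it was above background on no array. They belong to large families of similar genes whose transcripts a probe may share.

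Genes best known from other tissues were also among the BBMP members. Tex101, a surface protein of germ cells, gave -5.19, -6.13 and -5.71 in the controls and -4.95, -4.59 and -4.57 after BBMP, at least 1.36-fold higher. Try10, a trypsin, gave -5.43, -5.12 and -6.01 against -4.96, -4.57 and -4.73, at least 1.31-fold higher. The second probe of each was above background on no array. In the marker lists of those tissues, 4 of 7 male germ cell genes on the array and 3 of 8 exocrine pancreas genes were above background on no array, among them the germ cell gene Ddx4 and the trypsinogen Prss1. The summed level of the pancreas list, in units of the array's 75th percentile, was 0.598 to 0.772 in controls and 0.787 to 1.16 after BBMP. Of its 4 tested genes 3 were higher and 1 lower, 0 passed limma's adjusted p, and 2 were under an unadjusted p of 0.05, Cpb1 (1.56 ± 0.60, SE) and Ctrb1 (0.24 ± 0.09). Cpb1 read -2.65, -3.64 and -4.39 in controls and -2.56, -2.56 and -0.89 after BBMP, so that BBMP 3 stood apart. For the germ cell list the summed level was 0.160 to 0.205 and 0.172 to 0.259. The part of such cells in the Try10 and Tex101 values was not tested.

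B4galt4, a galactosyltransferase, gave -5.21, -5.38 and -5.27 in the controls and -4.26, -4.57 and -4.85 after BBMP, at least 1.46-fold higher, and had no other probe. Hes5, a repressor induced by Notch, gave -4.87, -4.92 and -5.16 against -4.33, -4.10 and -4.97, at least 1.42-fold higher. The groups of Hes5 overlapped, and its other probe was above background on no array. The other 14 named BBMP probes had bounds from 1.08-fold to 1.26-fold, and the groups overlapped for 6 of them. One of these, singled out after its values were seen, belongs to Abcc3, an export pump of the hepatocyte's blood-facing membrane. It gave -5.11, -5.91 and -5.30 against -4.83, -4.94 and -4.52, at least 1.26-fold higher. The other Abcc3 probes carried the mark on each of the 6 arrays. One read -2.86 ± 0.26 in controls and -2.47 ± 0.18 after BBMP and the other -4.65 ± 0.34 and -4.31 ± 0.19 (SD, n = 3).

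Unnamed probes of the BBMP side began with A_44_P358693, which read -7.14, -5.05 and -7.45 in the controls and -3.76, -3.13 and -4.83 after BBMP, at least 2.36-fold higher. A_64_P001025 read -4.99, -5.43 and -5.46 against -4.37, -3.67 and -3.57, at least 2.33-fold higher. These 2 probes and Zfp362 were the only BBMP members with a bound of 2-fold or more. A_44_P560917 read -5.65, -6.07 and -5.18 against -4.65, -3.71 and -4.35, and A_44_P724820 read -5.78, -5.56 and -5.26 against -4.05, -4.31 and -4.43, each at least 1.78-fold higher. A_44_P429680 read -4.89, -5.02 and -5.50 against -4.09, -4.00 and -4.59, also at least 1.78-fold higher. The smallest bounds belonged to A_44_P145835 (1.04-fold) and A_44_P193772 (1.05-fold). With the floor at the 1st percentile of detected signals the bound of A_44_P193772 was 0.867, under 1-fold. The other 46 unnamed BBMP probes had bounds from 1.09-fold to 1.74-fold.

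The other probes of the member genes show how often the mark of 1 probe stood for its gene. On the corn oil side 6 of 13 genes had another probe, and for 2 of them, Castor2 and Erc2, such a probe carried the mark on each of the 6 arrays. On the BBMP side 22 of 26 genes had another probe, and for 10 of them it was well above background on all 6 arrays. Among genes with another probe, every probe was off in the whole dim group for 3 of 6 and 11 of 22 genes, and for 2 and 10 of these the other probes were off in both groups. For the BBMP genes, 15 further probes were well above background on all arrays; 9 were higher and 6 lower after BBMP, with differences from -0.25 to 0.39 on the log2 scale, while without scaling between arrays 13 and with normexp 7 were higher. For the corn oil genes the 2 such probes differed by -0.31 and -0.36. These probes were read in the same animals, so they repeat the contrast and do not test it.

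Genes related to the members were followed through 20 lists of cell types and pathways, with the members themselves left out of the tests and counts. The summed level of a list includes its members. In limma's test over all features, 2 of 28112 features (0.00711%) passed an adjusted p of 0.05, and 0 of the 111 tested list genes did; the smallest adjusted p among them was 0.350. At an unadjusted p under 0.05 there were 8 higher and 13 lower list genes, or 18.9% beside 10.8% of all features. The lists were chosen with earlier results of these data known, so nothing is read from the comparison of these shares. The median log2 difference of all 111 tested list genes was -0.08.

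The list of female-enriched liver genes, to which A1bg belongs, had 3 of its 6 other genes higher and 3 lower after BBMP. The prolactin receptor Prlr differed by -2.32 ± 0.49 (SE), the steroid reductase Srd5a1 by -0.56 ± 0.12 and the sulfotransferase Sult2a1 by -0.63 ± 0.19. In the other direction, Sult2a2 differed by 1.41 ± 0.47, Cyp2a1 by 0.45 ± 0.11 and Cyp2c12, the classical female steroid hydroxylase, by 1.096 ± 0.551. Sult2a2 was not marked as well above background in corn oil 2, where it read -5.40, below that array's floor. Its difference rests in part on that value, and it entered the test through the BBMP group. None of these 6 genes passed limma's adjusted p, which lay between 0.350 and 0.517. Of the relatives of Plppr1, 5 were tested and 0 passed, with a median of 0.01. Plppr5 was above background on no array and Plppr4 on BBMP 2 alone. Of the relatives of Adam4l1, 5 were tested and 0 passed, with a median of 0.03, and the germ line genes Adam2, Adam3a and Adam5 were above background on no array.

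For cell types, 0 list genes passed in either direction. Signs depended in part on the scaling: without scaling between arrays the median of all probes was 0.11 rather than -0.04, and counts under that setting are given where they change most. Neuron markers, the class nearest to Plppr1 and Erc2, were lower in 4 of 4 tested genes, with 2 under an unadjusted p of 0.05, and Snap25, Gap43 and Syt1 were above background on no array. Without scaling 3 of the 4 were lower. Their summed level was 0.438 to 0.549 in controls and 0.326 to 0.393 after BBMP. These ranges did not overlap, which was not particular to neuron markers. The sums were also apart for the stellate, collagen-folding and B and plasma cell lists (lower) and the pancreas and adrenal lists (higher). A sum is taken on the linear scale, so the strongest genes of a list weigh most in it. In the adrenal list most of it was Cyp17a1, at 3.20, 3.05 and 3.16 in controls and 3.76, 4.20 and 3.47 after BBMP. Stellate cell and fibroblast markers, the class nearest to Fkbp10, were lower in 6 of 9 genes (5 without scaling or with normexp), with 3 under an unadjusted p of 0.05, and summed to 47.0 to 51.8 against 38.7 to 44.9. The part of nerve or stellate cells in the members' values was not tested. T and NK cell markers were higher in 2 of 7 genes, B and plasma cell markers in 2 of 5, neutrophil markers in 0 of 3, erythroid markers in 0 of 6 (3 without scaling), cholangiocyte markers in 2 of 6 and adipocyte markers in 1 of 3. Kupffer cell markers were higher in 8 of 8 genes, with 0 under limma's unadjusted p of 0.05. Their sums overlapped, at 53.0 to 88.7 in controls and 69.7 to 90.4 after BBMP, and all 8 were read in the same animals. Sinusoidal endothelial markers were higher in 3 of 4, skeletal muscle markers in 3 of 5, adrenal markers in 2 of 2, hepatocyte markers in 3 of 10 (5 without scaling) and male-enriched liver genes in 3 of 6 (5 without scaling). The 2 adrenal genes were Cyp17a1 and Cyp21a1, while Star, Cyp11a1, Cyp11b1 and Mc2r were above background on no array. Some counted genes carried the mark on all arrays of 1 group only and entered the test through that group, so their signs are not free of the filter. Among them, Acta1 and Blk (through BBMP) and Epb42, Spp1 and Retn (through corn oil) were higher in that group. Fabp4 and Gad1, which entered through BBMP, were lower there.

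Position on the array and promoter letters were compared as descriptions. Over 4 equal bands of the array's rows, from top to bottom, the corn oil probes counted 13, 8, 8 and 7 and the BBMP probes 26, 14, 13 and 26, where all probes are spread evenly at 25.0% each. The promoters of the 12 corn oil genes held a median of 23 CG pairs in 300 bases, those of the 21 BBMP genes 7, and all promoters 7. TATAAA occurred in 2 of 12, 2 of 21 and 14.3%, and CCAAT in 4 of 12, 11 of 21 and 37.7%, on either strand and with overlaps allowed.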

How the data were processed

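Per the file headers, the authors read the arrays (Agilent rat design 035170, annotated on rn4) with Feature Extraction 10.7.1.1, and the submitters' processing notes name version 10.7. The deposited scanner files hold linear intensity per spot, background-subtracted and not normalised between arrays, and 0 or 1 marks. The authors' value table also holds intensity; set against the scanner files, each column is the processed signal divided by a constant near the array's 75th percentile. Cy3 labelling started from 0.2 µg of RNA, per the labels' protocols.

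Of 62976 spots, 1319 controls and 84 spike-in probes were removed. Unversioned accessions matched the RefSeq table of GRCr8 for 27460 probes (44.6%, 15284 genes). Signals were scaled by the 75th percentile (450.1 to 570.4 intensity units). Lists were tested with limma 3.58.1 in R 4.3.3 (lmFit, eBayes, two-sided, Benjamini-Hochberg adjustment over 28112 features; 1 probe per gene, the one with the highest mean; well above background on all 3 arrays of a group; spots marked as outliers, at most 21 per array, left out), a fit tested on simulated data. Other values came from numpy 2.4.6 and pandas 2.3.3 under Python 3.11.15. The number of arrays limits the precision. The p-values set each group difference against the spread between animals within a group, and so leave out differences between the slides.

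Described singly were, per direction, the 12 named and 5 unnamed probes with the largest bound, genes with several member probes, members in the lists and the 2 smallest bounds. Members and lists were chosen with earlier results of these data known. Alternatives were other detection marks, floors, scalings and normexp (on the median spot signal, offset 50), the value table, other filters, a replicate block and leaving out each array. Probe sequences were not used here.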

Additional observations from a re-analysis of the deposited data

How the results depend on the processing

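The counts of 36 and 79 probes depended on detection. With the positive and significant mark they were 61 and 129, with 0 members among them; with 2 of 3 arrays sufficing, 211 and 336; with a gap of at least 1 on the log2 scale, 4 and 0, or 2 and 0 with dim values raised to the floor (added after the data were seen); with a bound of at least 1.5-fold, 24 and 17; with a common signal limit (added after the data were seen), 70 and 65; and without probes with an outlier spot, 36 and 79. Leaving out 1 array asks less of a probe, and gave 48 (without corn oil 3) to 143 (without corn oil 2) for the corn oil side and 104 (without corn oil 2) to 296 (without corn oil 3) for the BBMP side. The median bounds of 1.61-fold and 1.36-fold were 1.19 and 1.06 with normexp and an offset of 50, and 1.07 and 0.903 with the floor at the 5th percentile of detected signals, which leaves 25 of 36 and 21 of 79 probes with a bound over 1-fold. Other scalings, the 1st percentile, the value table and leaving out 1 array kept the medians within 1.37 to 1.67 and 1.16 to 1.505. With the floor at the 1st percentile, 35 of 36 and 62 of 79 probes kept a bound over 1-fold. The measured direction turned for 7 BBMP probes under normexp, none of them described singly, and the cause was not tested. List genes past limma's threshold numbered 0 in the main fit and under all 13 alternatives (15 to 23 at an unadjusted p under 0.05). The replicate block gave 0 of 111 (22 unadjusted); same-numbered animals correlated at 0.089, 0.016 and 0.072, so the numbers are not known to pair them. Signal near background limits a member to a bound wherever a dim value was raised to the floor.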
